A study of Danio rerio with 6 samples.

Results

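Wide H3K9ac promoter domains are promoter regions of zebrafish heart tissue over which acetylation of lysine 9 on histone H3 (H3K9ac) was called as 1 peak of at least 3000 bp. A promoter peak is one with an annotated transcription start site (TSS) inside it or within 2 kb of it. Annotated TSSs are those of the 10299 transcripts named in the deposited peak lists, and genes not named there were not considered. The members were chosen by the widths of these same peaks, so every width given here describes them and tests nothing. Of 16264 H3K9ac peaks in the uncut library, 7750 were promoter peaks and 258 of those were wide. At 6 days post amputation (dpa) 333 of 8197 promoter peaks were wide, among 17525 peaks in all, and at 9 dpa 385 of 8007, among 17223. Wide peaks that overlapped by at least 1 bp between times were merged to 1 domain, which gave 528 domains among 8530 merged promoter loci. The domains lay on or within 2 kb of the TSSs of 679 genes, which is 7.47% of the 9086 genes whose promoter had any H3K9ac peak.

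The series maps 2 histone marks by chromatin immunoprecipitation and sequencing in hearts of fish aged 1 to 1.5 years, with a commercial antibody to each mark. The groups used are hearts after removal of the ventricle tip, collected at 6 dpa and at 9 dpa, and uncut hearts. The acetylation libraries carry the results, and the libraries of trimethylation at the same residue (H3K9me3, written H3K9M3 in the labels) are used as a second readout. Each mark was sequenced once at each time, 6 libraries in all, so differences between times are differences between single libraries. The labels give no strain, transgene or sex, and the number of hearts in a library and the control library are not given in the sources used here.

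Acetyl groups on lysine 9 are added by acetyltransferases of the GCN5 and PCAF type and removed by histone deacetylases, and the mark typically lies on the nucleosomes just downstream of active start sites. Most active promoters carry a short block of the mark. In mammals, unusually broad blocks of active promoter marks are known at genes of cell identity and at strongly transcribed genes. Zebrafish regrow the ventricle from existing cardiomyocytes, with signals from endocardium and epicardium, over the weeks that follow amputation.

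The width distribution fell off smoothly across the 3000 bp minimum, and the wide peaks are its tail. Median width of the wide peaks was 3486 bp in the uncut library, 3509 bp at 6 dpa and 3506 bp at 9 dpa, against 1578, 1573 and 1633 bp for narrower promoter peaks in the same order. The widest reached 7550 bp in the uncut library, 7036 bp at 6 dpa and 8041 bp at 9 dpa. Those of at least 5000 bp numbered 21, 26 and 38 in the same order, while 131, 165 and 191 lay between 3000 and 3500 bp. Many members therefore lay close to the minimum, where a few bp decide membership. Just inside it in the uncut library were smarcc1b at 3000 bp, ddx3 at 3002 bp and sin3aa at 3003 bp, and just outside were ctdsp2 at 2991 bp, with mat2aa and srsf5b both at 2989 bp. At 6 dpa rps14 (3005 bp), spryd7a and gnb1b (3006 bp each) were inside, and mrpl23 (2999 bp), tuba8l (2991 bp) and the peak of cyp2ad3 and cyp2v1 (2987 bp) outside. At 9 dpa ubtfl and cish (3002 bp each) and commd8 (3003 bp) were inside, and egln3, zgc:174972 and id2b, all at 2999 bp, outside.

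**Figure D1:**
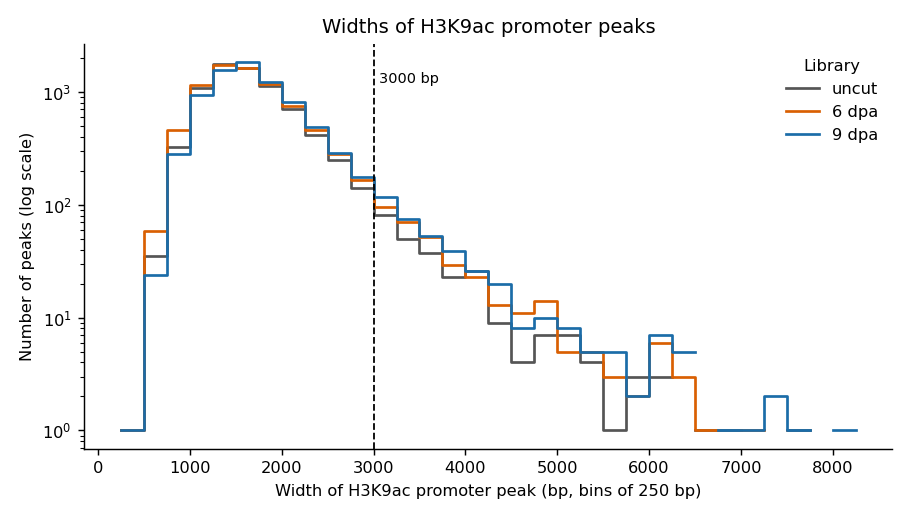
Number of H3K9ac promoter peaks (log scale) by peak width in bins of 250 bp, one line for each library, with the 3000 bp minimum dashed. The tail beyond the minimum holds 258 peaks in the uncut library, 333 at 6 dpa and 385 at 9 dpa, and no gap separates it from the narrower peaks.

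Wide peaks took a small part of the mark in each library. They made up 3.33% of promoter peaks in the uncut library, 4.06% at 6 dpa and 4.81% at 9 dpa. Their share of all tags in H3K9ac peaks was 4.51%, 5.66% and 6.37% in that order, a tag being 1 read inside a peak. Their median tag count was 294 in the uncut library, 307 at 6 dpa and 327 at 9 dpa, against 113, 114 and 127 for narrower promoter peaks. Part of that gap is width, since per kb the medians were 81.2, 86.1 and 90.8 tags in wide peaks and 70.3, 71.3 and 76.7 in narrower ones. The fold enrichment that the authors' caller gave was lower in the wide peaks, with medians of 5.22, 6.16 and 5.40 against 6.53, 8.47 and 7.06. The score, which is 10 times the negative log10 of the caller's p, was higher in them, with medians of 213, 282 and 253 against 185, 245 and 223. The local read density that a peak was scored against can be worked out from its score and its tags. It had medians of 43.7, 42.5 and 46.9 reads per kb at wide peaks and 26.1, 22.4 and 27.4 at narrower ones. Wide peaks thus had slightly more tags per kb and were scored against a higher local density, in all 3 libraries. The local window can hold reads of the peak itself. Taken over 10 kb, the local density came to at least the peak's own tags in all 258, 333 and 385 wide peaks. The same held in all narrower promoter peaks. The higher local density at wide peaks is therefore not a readout apart from their tags.

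Around the start site the wide peaks reached out in both directions and were less one-sided than narrower peaks. The following values take peaks with a TSS inside and all TSSs on 1 strand. Wide peaks extended a median of 1442 bp upstream and 2241 bp downstream of the TSS in the uncut library, against 475 and 1028 bp for narrower peaks. At 6 dpa the medians were 1312 and 2257 bp against 501 and 1030 bp, and at 9 dpa 1404 and 2159 bp against 484 and 1073 bp. The downstream arm was the longer one in 63.6%, 67.9% and 65.5% of wide peaks in the uncut, 6 dpa and 9 dpa libraries, against 86.8%, 86.8% and 87.8% of narrower ones. The summit, the point of highest signal, lay downstream of the TSS in 72.5%, 73.6% and 78.2% of wide peaks and in 85.8%, 86.0% and 86.2% of narrower ones. The median length of the transcribed region behind a wide peak was 12.3, 11.2 and 11.0 kb, against 14.3 kb for narrower peaks in each library. TSSs on both strands lay in 15.5% of wide peaks in the uncut library (Wilson 95% interval 11.6 to 20.4), against 11.1% of narrower ones (10.5 to 11.9). At 6 and 9 dpa these shares were 13.2% and 15.6% in wide peaks and 10.9% and 10.8% in narrower ones, so most wide peaks held TSSs of 1 direction. A wider peak has more room for a second TSS, and intervals given here cover counting error only.

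**Figure D2:**
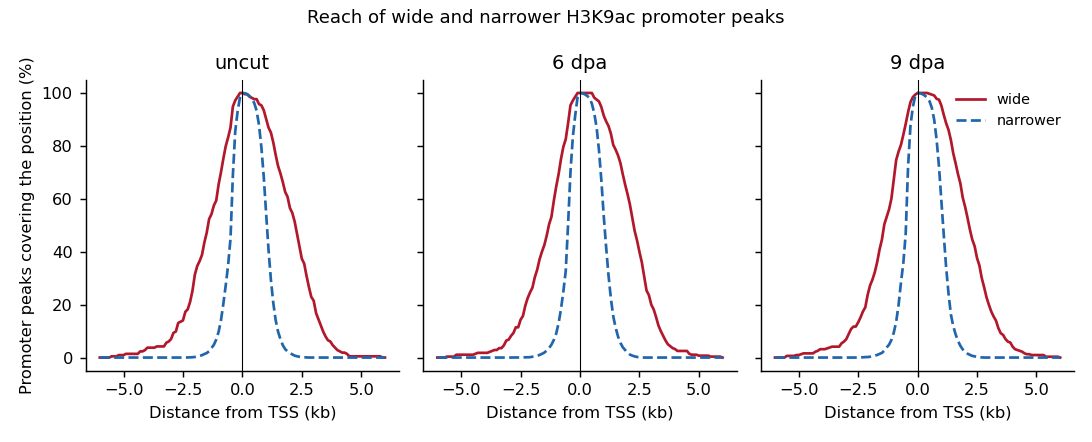
Share of promoter peaks (%) that cover each position by distance from the TSS (kb, downstream to the right), for wide (solid) and narrower (dashed) H3K9ac peaks with a TSS inside, one panel for each library. Wide peaks reach further on both sides, with median upstream arms of 1442, 1312 and 1404 bp against 475, 501 and 484 bp in narrower peaks.

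Which genes carried a wide domain is the main description here. Of the 528 domains, 438 lay on or within 2 kb of the TSS of 1 gene, 82 of 2 genes and 8 of more. In 517 a TSS itself lay inside the domain. One domain on chromosome 4 was counted for 55 genes of the mir430 microRNA cluster, so genes are not independent members. Domains lay on all 25 chromosomes, with the highest share on chromosome 6, at 36 of 390 promoter loci or 9.23%. By time, 361 genes had a wide domain in the uncut library, 440 at 6 dpa and 517 at 9 dpa, and 248 had one at all 3 times, 2.73% of the 9086. The 25 gene lists used below held 181 of the 679 genes, and 498 were in no list. Some genes stand in 2 lists, and some share a domain. Widths of domains given below are sums over the H3K9ac peaks on the domain, as the tags are, so a domain split into several peaks can have a large sum in a library in which no single peak reached 3000 bp.

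The 10 domains with the largest mean width differed by under 1.5-fold in width over the 3 times. The gene anp32a, which encodes a histone-binding nuclear phosphoprotein, had the widest, at chr7:33075975-33083782 of the danRer10 build. It measured 7550 bp in the uncut library, 6293 bp at 6 dpa and 7498 bp at 9 dpa, with 816, 1032 and 1075 tags. The repressor gene bcl6a followed with 6624, 5946 and 6755 bp and 940, 1099 and 1151 tags (chr6:28229256-28236090). Both domains had fewer bp and more tags at 6 dpa than in the uncut library. The zinc finger repressor zbtb20 had 6127, 6093 and 6468 bp, and setd1ba, which encodes a methyltransferase of lysine 4 on histone H3, had 5870, 6196 and 6139 bp. The domain of fkbp5, a co-chaperone of steroid receptors that glucocorticoids induce in mammals, measured 5349, 6122 and 6155 bp with 636, 704 and 860 tags. The arrestin-domain gene arrdc2 had 6153, 6423 and 6408 bp in all, split between 2 peaks in the uncut and 6 dpa libraries. The microRNA gene mir21-1 had 5067, 6343 and 5511 bp with 356, 577 and 451 tags (chr10:28311027-28317676).

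The other 3 of the 10 widest domains also carried H3K9me3, the mark typical of silent chromatin. They were zgc:113276 with 1878, 1727 and 1748 H3K9ac tags, the mir430 cluster with 1578, 1386 and 1654, and LOC795615, annotated as a gag-like protein, with 1224, 1072 and 1161, in the order uncut, 6 dpa and 9 dpa. In the uncut and 9 dpa libraries these were the highest tag counts among the 10. The H3K9me3 peaks on them held 1185, 1991 and 1822 tags at zgc:113276, 834, 1873 and 1705 at mir430, and 1146, 2297 and 1699 at LOC795615. The gag annotation names a protein of retroelements, and the mir430 microRNAs clear maternal mRNA in the zebrafish embryo. Reads from repeated copies can map to several places, and how the authors' alignment placed them is not given in the sources used here, so the levels at these 3 domains are uncertain.

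Several gene lists, most of them of regulatory genes, had wide domains in larger shares than the 7.47% found over all genes with a peak. The microRNA list had 65 of 97 (67.0%), of which 55 are the mir430 genes on 1 domain. Without mir430, the lists with the highest shares were erythrocyte and thrombocyte genes (9 of 17 with a promoter peak, 52.9%), AP-1 and immediate early genes (15 of 31, 48.4%), Kruppel-like, forkhead and Sox factors (16 of 37, 43.2%), circadian clock genes (8 of 21, 38.1%) and feedback inhibitors of signalling (10 of 28, 35.7%). Cardiac transcription factors followed with 7 of 23 (30.4%), endothelial and endocardial genes with 5 of 18 (27.8%), microRNA genes other than mir430 with 10 of 41 (24.4%) and other homeobox and T-box factors with 7 of 31 (22.6%). Large housekeeping lists sat near or under the overall share, with 5 of 81 ribosomal protein genes (6.17%), 5 of 79 respiratory chain genes (6.33%), 6 of 68 translation factors (8.82%), 6 of 116 splicing and RNA-binding genes (5.17%) and 6 of 153 ubiquitin pathway genes (3.92%). None of 15 leukocyte, 15 extracellular matrix and 5 epicardial genes with a promoter peak had a wide one. These are counts in libraries from which the lists were partly chosen, and no enrichment was tested.

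**Figure D3:**
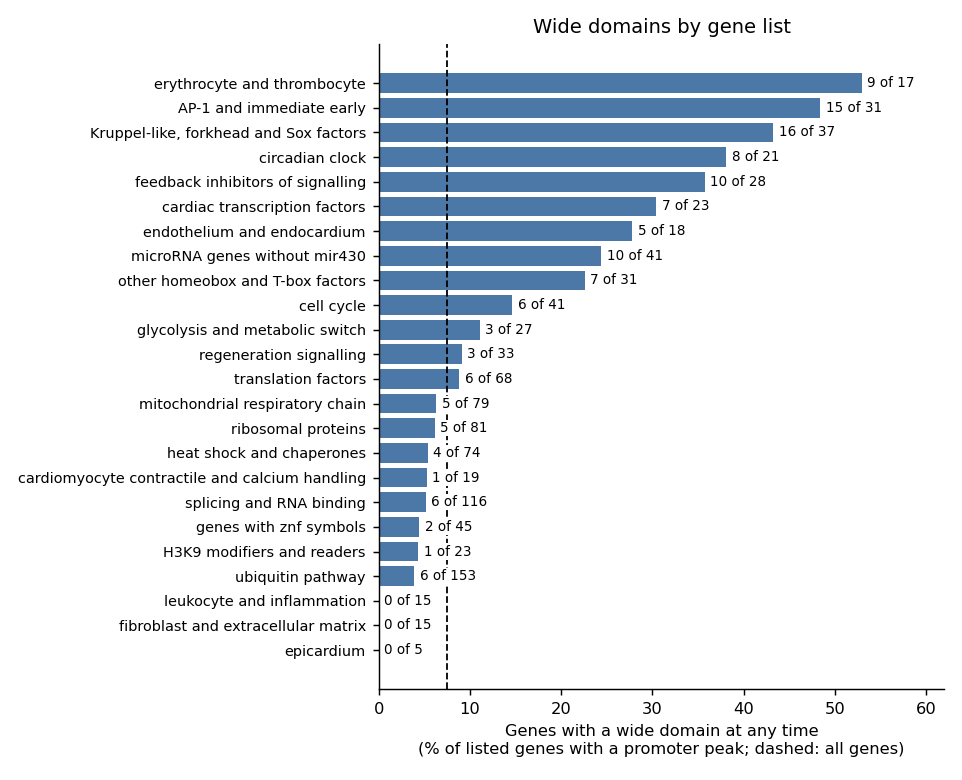
Share of genes with a wide H3K9ac domain at any time (%), out of the listed genes with an H3K9ac promoter peak, for each gene list with at least 5 such genes; the numbers beside the bars are the genes and the dashed line is the 7.47% of all genes, and mir430 genes are left out. Erythroid and thrombocyte, immediate early and Kruppel-like, forkhead and Sox lists stand at 52.9%, 48.4% and 43.2%, and leukocyte, extracellular matrix and epicardial lists at 0.

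In bulk tissue, fewer cells of a type and less of the mark per cell cannot be told apart, which applies to every difference between libraries below. Tissue markers were read from all promoter peaks, wide or not. Of 9 cardiomyocyte markers the files name 5, cmlc1, myl7, tnnc1a, tnnt2a and vmhcl, and all of them had a promoter peak in the uncut and 9 dpa libraries and 3 of them at 6 dpa. Their summed tags were 485 in the uncut library, 189 at 6 dpa and 477 at 9 dpa, with tnnc1a and tnnt2a at 0 at 6 dpa. The 4 red cell markers named had 545, 758 and 789 tags, with gata1a at 0 in the uncut and 6 dpa libraries and ba1 at 0 at 9 dpa. The 4 endothelial markers had 300, 129 and 203 tags, with fli1a at 0 after amputation and pecam1 listed at 9 dpa alone. The 2 epicardial markers had 0, 88 and 76 tags, with wt1b at 0 at 9 dpa. The leukocyte marker coro1a had 39 tags at 6 dpa and 0 at the other times. Skeletal muscle, neural and liver markers were not named in the files, and the germline gene piwil1 had no promoter peak. Some of the named heart muscle markers thus had a promoter peak in each library, with the lowest summed tags and 3 of the 5 listed at 6 dpa. The part of cell composition in the results below was not tested.

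Of the genes that make heart muscle contract or handle calcium, 19 had a promoter peak and 1 of them (5.26%, against 7.47% of all genes) a wide one, mb, which encodes the oxygen-binding protein myoglobin. Its domain (chr1:54459899-54463796) measured 3898 bp with 261 tags in the uncut library and 1313 bp with 64 tags at 6 dpa, and no peak was listed at 9 dpa. The cardiac transcription factor list held wide domains at different times. The domain of gata5, a zinc finger factor of endoderm and heart, measured 3076, 3856 and 6188 bp with 292, 311 and 542 tags and was wide at all times. The domain of hand2, a basic helix-loop-helix factor of ventricular growth, measured 6807 bp in the uncut library, 2685 bp at 6 dpa and 6405 bp at 9 dpa, with 476, 217 and 577 tags (chr1:37469883-37476747). The tag count at hand2 was lowest at 6 dpa and highest at 9 dpa. Its wide peaks scored only 62.1 in the uncut library and 74.4 at 9 dpa, where the lowest listed score is 50. The narrower 6 dpa peak scored 194. The widths at hand2 thus rest on low-scoring peaks in the uncut and 9 dpa libraries. Tags per kb at hand2 were 69.9, 80.8 and 90.1 in the uncut, 6 dpa and 9 dpa libraries. The local density scored against was 55.6, 40.7 and 71.5 reads per kb in that order, and the library background 14.63, 11.25 and 15.01. Tags per kb were thus well above background in each library, and why the scores differ was not tested. The domain of tbx20, a T-box factor needed for heart development, had 3424, 1516 and 2784 bp with 189, 68 and 170 tags (chr16:42616875-42620298). By contrast nr2f1a, a nuclear receptor of atrial identity in zebrafish, had 2234, 4254 and 5507 bp and 120, 239 and 286 tags, more at each time after amputation than in the uncut library. The T-box gene tbx2b was wide at 6 dpa alone (2187, 3462 and 2841 bp) and the MADS-box gene mef2aa at 9 dpa alone (2404, 2703 and 3308 bp). The domain of meis1b, a homeobox factor, was listed at 9 dpa only, with 7312 bp and 650 tags.

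Of the red cell and thrombocyte genes with a promoter peak, 9 of 17 had a wide domain. The red cell markers above held more summed tags after amputation, but cahz and slc4a1a among them are also among these 9 genes. The other markers named were ba1, with 106, 137 and 0 tags, and gata1a, with 0, 0 and 164, in the order uncut, 6 dpa and 9 dpa. The marker sums are therefore not a readout apart from these domains. Fish red cells, unlike those of mammals, keep their nucleus and chromatin. Of the 9, 5 were wide at all times, namely alas2 and slc25a37 (enzyme and mitochondrial iron importer of haem synthesis), slc4a1a (the band 3 anion exchanger), tal1 (a blood and endothelial transcription factor) and bcl2l1 (a survival factor). The domain of slc25a37 measured 4231, 6736 and 3331 bp with 299, 475 and 312 tags, and that of slc4a1a 3429, 3379 and 3402 bp with 222, 303 and 322 tags. The slc25a37 domain was thus widest at 6 dpa, while slc4a1a kept its width and held more tags after amputation. The carbonic anhydrase gene cahz had 3759, 4050 and 3471 bp, in 2 peaks at 6 dpa, with 217, 318 and 303 tags. For klf1, the erythroid Kruppel-like factor, the domain measured 2286, 3334 and 5553 bp with 174, 232 and 499 tags (chr6:7890729-7896782). The gene bcl11aa, whose mammalian counterpart represses fetal globin, had 1870, 3519 and 3057 bp, and gfi1b, a factor of red cell and platelet precursors, was listed at 6 dpa (1635 bp) and 9 dpa (3406 bp) alone. Of the 9 genes, 6 were wide in the uncut library, 7 at 6 dpa and 9 at 9 dpa. The choice itself therefore favours higher values after amputation. Relative to all promoter loci, the median log2 change of the 8 red cell domains with a peak at all times was 0.31 at 6 dpa and 0.28 at 9 dpa, and 5 and 6 of them were higher than in the uncut library beyond counting error. Over all promoter loci 12.7% were higher by this measure at 6 dpa and 9.08% at 9 dpa, and over the 499 wide domains with a peak at all times 162 and 133 were. The 499 domains held more tags than all loci, with medians of 249 and 118 in the uncut library. They therefore pass counting error at smaller changes, and the share of all loci is an unlike measure for them.

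Immediate early genes, which are transcribed within minutes of a stimulus, carried wide domains both before and after amputation. The AP-1 genes jun and junbb were wide at all times, with 5127, 3946 and 5003 bp at jun and 3322, 3232 and 3315 bp at junbb. Tags at jun were 445, 391 and 436 and those at junbb 349, 468 and 449. The paralogue junba was wide after amputation alone, with 2334, 3708 and 3786 bp and 127, 239 and 248 tags. Wide at 6 dpa alone were the antiproliferative gene btg2 (2077, 4390 and 2073 bp; 154, 297 and 186 tags), ier2 (2510, 4139 and 2503 bp; 262, 436 and 300 tags) and the mRNA decay factors zfp36l1a (2557, 3965 and 2688 bp) and zfp36l2 (2285, 3265 and 2578 bp). In btg2, ier2 and zfp36l1a the 9 dpa widths were again close to the uncut ones. Wide at all times were also ier5 (4426, 4505 and 4480 bp) and btg1 (3376, 3858 and 3814 bp). The genes cebpd (2270, 2161 and 3472 bp), gadd45ba (2868, 2493 and 3110 bp) and klf9 (2575, 2744 and 3190 bp) were wide at 9 dpa alone. Wide at 6 and 9 dpa was klf6a (2947, 3813 and 3903 bp), and in the uncut library alone mafk (3034, 2513 and 2590 bp). The gene mycb was wide in the uncut and 6 dpa libraries (3233, 3134 and 2984 bp). Tags at gadd45ba were 266, 265 and 260, and several of these widths lay close to the minimum. Of the 15 domains, 6 were wide in the uncut library, 11 at 6 dpa and 9 at 9 dpa, so the choice itself favours higher values after amputation. Over the 15 domains the median log2 tag change was 0.15 at 6 dpa, with 6 higher and 3 lower than in the uncut library beyond counting error, and 2 and 4 at 9 dpa. For comparison, 162 of the 499 domains were higher and 72 lower at 6 dpa (12.7% and 14.3% of all loci), and 133 and 57 at 9 dpa (9.08% and 8.75%).

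Among Kruppel-like, forkhead and Sox factors, 15 of the 16 wide domains had a peak at all times, and 0 of these were lower than in the uncut library beyond counting error at either time, where 14.3% of all loci were at 6 dpa and 8.75% at 9 dpa. Of the 499 wide domains with a peak at all times, 72 and 57 were lower in that order. Of the 16, 5 were wide in the uncut library, 12 at 6 dpa and 13 at 9 dpa, so the choice itself favours higher values at both times after amputation. The median log2 tag change of 15 domains was 0.27 at 6 dpa, and 7 of them were higher beyond counting error at 6 dpa and 4 at 9 dpa (12.7% and 9.08% of all loci). By the same measure 162 and 133 of the 499 domains were higher. The stress-responsive forkhead genes foxo3a (4280, 4260 and 3496 bp) and foxo3b (3651, 4214 and 4234 bp) were wide at all times, as were klf11a (3737, 3708 and 3315 bp) and klf13 (3150, 3330 and 3127 bp). Tags at klf13 were 267, 404 and 363, highest at 6 dpa, with little difference in width. The flow-responsive endothelial factor klf2a was wide at 6 dpa alone, with 2865, 4475 and 2689 bp and 137, 185 and 151 tags. The mesenchymal forkhead gene foxc1b was also wide at 6 dpa alone (1922, 3459 and 2640 bp) and its paralogue foxc1a at 6 and 9 dpa (2961, 3615 and 3725 bp). The Sox gene sox4a had 2477, 3307 and 3171 bp with 123, 208 and 197 tags, and sox4b had no listed peak in the uncut library, 3280 bp at 6 dpa and 1924 bp at 9 dpa. Wide domains stood also at klf3, klf11b, klf17 and foxk1.

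Feedback inhibitors act on the pathways that induce them, and 4 of their 10 wide domains were wide at all times. The MAP kinase phosphatases dusp1 (3401, 3804 and 3140 bp; 335, 508 and 388 tags) and dusp6 (3825, 5273 and 4045 bp; 470, 570 and 519 tags) were wide at all times and widest at 6 dpa. The NF-kB inhibitor nfkbie (3575, 3390 and 3372 bp) was wide at all times too. The inhibitors of basic helix-loop-helix factors id2a (2531, 4350 and 3491 bp; 166, 329 and 246 tags) and id1 (2159, 2230 and 3246 bp; 131, 139 and 221 tags) differed in time, with id2a widest at 6 dpa and id1 at 9 dpa. The cytokine signal inhibitors socs2 and cish, the TGF-beta inhibitor smad7 and the growth factor inhibitor spry4 were wide at 9 dpa, socs2 in the uncut library and smad7 at 6 dpa as well, and per1b, listed here too, is given with the clock genes. Relative to all promoter loci, the median log2 change of the 10 domains was -0.05 at 6 dpa, and scaled to library background it was 0.45. Relative to all loci, 2 were higher and 2 lower than in the uncut library beyond counting error (12.7% and 14.3% of all loci). By the same measure 162 of the 499 wide domains with a peak at all times were higher and 72 lower. Of the 10, 5 were wide in the uncut library, 6 at 6 dpa and 10 at 9 dpa, so the choice itself favours higher values at 9 dpa.

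Clock genes form loops in which bHLH and PAR-domain factors drive their own repressors, and their levels swing over the day. The hour of collection is not given in the labels, so time of day and days after amputation cannot be told apart for them. The period gene per1b had 4182, 3847 and 3397 bp with 448, 447 and 320 tags. The repressor nr1d1, encoding Rev-erb alpha, had 3086, 2138 and 2001 bp with 177, 124 and 106 tags, and the PAR-domain gene dbpa had 4188, 3692 and 3514 bp with 272, 185 and 200 tags. The repressor bhlhe40 ran the other way with 1815, 2174 and 4531 bp and 188, 156 and 374 tags. The PAR-domain genes tefa (3544, 3862 and 3528 bp) and tefb (3071, 2879 and 3018 bp) kept their widths, and dbpb and nfil3-6 were wide at 9 dpa alone. At 9 dpa 4 of the 8 clock domains were lower than in the uncut library beyond counting error and 1 was higher, where 8.75% of all loci were lower and 9.08% higher. Among the 499 wide domains with a peak at all times 57 were lower and 133 higher. Of the 8, 5 were wide in the uncut library, 3 at 6 dpa and 7 at 9 dpa, so the choice itself bears on these counts.

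All 4 heat shock and chaperone genes with a wide domain held fewer tags than in the uncut library, beyond counting error, at 6 and at 9 dpa, where 14.3% and 8.75% of all loci did. Among the 499 wide domains with a peak at all times 72 and 57 did. All 4 were wide in the uncut library and 1 at 6 dpa, so the choice itself favours lower values after amputation. The inducible chaperone gene hsp70l had 3278, 1979 and 2777 bp with 260, 118 and 183 tags (chr8:4739925-4743202). Its constitutive relative hspa8 had 3608, 3118 and 3185 bp with 383, 257 and 337 tags, and hsp90ab1 had 3401, 2707 and 3171 bp with 222, 144 and 187 tags. The co-chaperone gene dnaja1 had 4817, 4490 and 4053 bp with 414, 363 and 365 tags, in 2 peaks at 6 and 9 dpa. Relative to all promoter loci the median log2 change was -0.72 at 6 dpa and -0.44 at 9 dpa. With tags scaled to the library background instead, hsp70l (-0.76), hsp90ab1 (-0.25) and hspa8 (-0.20) kept a negative sign at 6 dpa and dnaja1 turned to 0.19. The changes at hsp90ab1 and hspa8 were small on this scale. The counts beyond counting error above hold relative to all promoter loci and were not made on this scale. These 4 are a small part of the 74 listed chaperone genes with a promoter peak.

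Wide domains at microRNA genes included several of blood, vessel and muscle. The erythroid pair mir144 and mir451a share 1 domain of 5012 bp in the uncut library, 4184 bp at 6 dpa and 6307 bp at 9 dpa, with 440, 525 and 775 tags. The endothelial mir126a had 2901, 2337 and 3808 bp with 157, 92 and 235 tags. The muscle pair mir133a-1 and mir1-2 had a listed peak at 9 dpa alone, with 3429 bp and 183 tags. Nearly constant in width were mir101a, on a domain shared with jak1 (3466, 3631 and 3397 bp), mir210, known as hypoxia-induced in mammals (3911, 3864 and 4019 bp), and mir30b with mir30d on 1 domain (3514, 3633 and 3305 bp). Among endothelial genes heg (3152, 3703 and 3226 bp) and tal1 (4994, 3909 and 5464 bp) were wide at all times, while the apelin receptor gene aplnrb (3334 and 3476 bp at 6 and 9 dpa) and fli1b (2819 and 3540 bp) had no listed peak in the uncut library.

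Of 41 cell cycle genes with a promoter peak 6 (14.6%, against 7.47% of all genes) had a wide domain. They included both inhibitors and drivers of division. The inhibitor genes cdkn1ba (2535, 3201 and 3004 bp; 270, 432 and 346 tags) and cdkn1bb (3838, 3878 and 4092 bp; 442, 577 and 589 tags), which encode p27-type proteins, and ccng2 (4238, 4192 and 4120 bp, split into 2 peaks in the uncut library) restrain division. The genes ccnd1, which encodes cyclin D1, and cdk2 drive it. The domain of ccnd1 measured 1216, 2600 and 3543 bp with 71, 127 and 211 tags, wider at each later time (chr7:54405361-54408903). That of cdk2, shared with sarnp, had 3665, 2629 and 3241 bp with 250, 203 and 256 tags. It lay in 2 peaks in the uncut and 6 dpa libraries and 1 at 9 dpa. The ccng2 domain is likewise shared, with ccni. Of 33 regeneration signals with a promoter peak 3 (9.09%, near the 7.47% of all genes) had a wide domain. Among them vegfab (1950, 2153 and 3213 bp) and the Notch target her6 (2782, 2852 and 4305 bp) were wide at 9 dpa alone. The third, tgfb1a (2978, 3163 and 2876 bp), was wide at 6 dpa alone, with widths close to the minimum at all times. The homeobox and T-box list added pbx2 (3121, 1773 and 3117 bp; 185, 102 and 218 tags), the repressors zeb1b and zeb2a, and tgif1. Of 23 listed H3K9 modifiers and readers with a promoter peak 1 (4.35%, against 7.47% of all genes) was wide, the heterochromatin protein gene cbx5, on a domain it shares with hnrnpa1b (3442, 3589 and 3285 bp). Of the metabolic lists, atp5f1 (3744, 4574 and 3906 bp; 270, 435 and 353 tags), ndufs5, rplp0 (on a domain shared with LOC796505) and eif2ak1 were wide at all times. Of 27 glycolysis genes with a promoter peak 3 (11.1%, against 7.47% of all genes) had a wide domain, each at 6 dpa alone. They were hif1al (2758, 3212 and 2979 bp), pdk2b (2696, 3051 and 2959 bp) and tpi1b (1823, 3106 and 1913 bp). At hif1al and pdk2b the widths lay close to the minimum at 6 and 9 dpa. Of the 45 genes with znf symbols, znf395a and znf668 had wide domains.

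Comparing the times, 161 of the 528 domains (30.5%) were wide at all 3. Another 112 were wide at 9 dpa alone, 85 at 6 dpa alone, 73 at both times after amputation and 44 in the uncut library alone. The remaining 39 were wide in the uncut and 9 dpa libraries and 14 in the uncut and 6 dpa libraries. Most domains outside the class of all times still had a listed peak at the other times, with median widest peaks between 2279 and 2861 bp there. Those wide at 9 dpa alone had a median widest peak of 2530 bp in the uncut library and 2542 bp at 6 dpa. Those wide at 6 dpa alone had 2518 bp in the uncut library and 2568 bp at 9 dpa. Those wide in the uncut library alone had 2356 bp at 6 dpa and 2635 bp at 9 dpa, and those wide in the uncut and 9 dpa libraries had 2279 bp at 6 dpa. Of the 258 uncut wide peaks, 98.1% overlapped an H3K9ac peak at each later time, and 67.8% overlapped a wide one at 6 dpa and 77.5% at 9 dpa. Of the 333 wide peaks at 6 dpa 52.9% overlapped a wide one of the uncut library, and of the 385 at 9 dpa 52.7%. These shares also depend on how many peaks were wide in each library.

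Tags of a domain were summed over its H3K9ac peaks in each library, and log2 ratios were taken relative to the median of all 7336 promoter loci with a peak at all times, which was 0.12 at 6 dpa, 0.22 at 9 dpa and 0.10 for 9 dpa against 6 dpa. Tags are sums over regions called separately in each library, so width and tags per kb stand beside them. Of the 528 domains, 499 had a peak at all times. Their median log2 ratio to the uncut library was 0.11 at 6 dpa and 0.09 at 9 dpa, and at 9 dpa against 6 dpa it was -0.03. Per kb the same medians were 0.044, 0.032 and -0.017, so the difference over all domains was small. Widths are part of the choice, which favours domains that were wide at one of the times compared. For domains chosen in the library outside each comparison the medians were 0.11 (369 domains), 0.09 (318) and -0.03 (251). Scaling tags to each library's background instead adds 0.50 to every log2 ratio at 6 dpa and 0.18 to every one at 9 dpa, and -0.32 to those of 9 dpa against 6 dpa. The direction of small differences therefore depends on the scale.

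At 6 dpa 41 of the 499 domains (8.22%) were over 1.5-fold higher in tags than in the uncut library, where 2.84% of all promoter loci were, and 27 (5.41%) were over 1.5-fold lower, where 7.05% of all loci were. At 9 dpa 28 (5.61%) were higher than in the uncut library and 9 (1.80%) lower, against 2.36% and 2.70% of all loci. Between 9 and 6 dpa 32 (6.41%) were higher at 9 dpa and 12 (2.40%) lower, against 4.93% and 1.23%. By width, 54 domains were over 1.5-fold wider at 6 dpa than in the uncut library and 25 narrower (2.77% and 2.26% of all loci), and 49 were wider and 8 narrower at 9 dpa (2.67% and 0.736%). At 9 dpa against 6 dpa 45 were wider and 26 narrower (3.30% and 1.46%). Per kb, 6 domains were over 1.5-fold higher at 6 dpa and 5 lower (1.38% and 2.82% of all loci), and 3 and 2 at 9 dpa (0.354% and 0.518%). At 9 dpa against 6 dpa the counts per kb were 5 higher and 8 lower (1.68% and 1.20%). Fewer domains thus passed this fold per kb than by width. Since widths chose the members, nothing is read from these counts against the shares of all loci. Higher than in the uncut library beyond the counting error of both tag counts were 162 domains at 6 dpa and 133 at 9 dpa (12.7% and 9.08% of all loci), and lower were 72 and 57 (14.3% and 8.75%). At 9 dpa against 6 dpa 102 were higher and 103 lower by this measure (11.4% and 9.68%). Because the domains held more tags than all loci, they passed this measure at smaller changes.

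The domains with the lowest tag change at 6 dpa included 2 cardiac factors, tbx20 and hand2, described above, and hsp70l. Lowest was nedd9, which encodes a scaffold protein of focal adhesions, with 190 tags over 3039 bp in the uncut library, 52 over 1044 bp at 6 dpa and 161 over 2761 bp at 9 dpa (chr19:3712297-3715335). Its log2 change at 6 dpa was -1.99, with a 95% counting interval of -2.43 to -1.55. For tbx20 the change was -1.59 (-1.99 to -1.19), for hsp70l -1.26 (-1.57 to -0.94) and for hand2 -1.25 (-1.48 to -1.02). Next came cluha at -1.15, whose mammalian counterpart binds mRNAs of mitochondrial proteins, rbpms2a at -1.02 and cpeb3 at -1.01, both encoding RNA-binding proteins, and the Notch feedback gene nrarpa at -0.98. Relative to all promoter loci, hand2 (0.06) and rbpms2a (-0.17) were within counting error of their uncut level at 9 dpa. On the same scale nrarpa (-0.25), tbx20 (-0.37), cluha (-0.44), nedd9 (-0.46), hsp70l (-0.73) and cpeb3 (-1.47) were lower beyond counting error. The intervals ended at -0.01 for nrarpa, -0.07 for tbx20, -0.18 for cluha and -0.16 for nedd9. Scaling to library background adds 0.18, so these calls depend on the scale. Those of hsp70l and cpeb3 ended at -0.45 and -1.16. Per kb the 6 dpa changes ran from -0.49 at hsp70l to 0.56 at cpeb3, and hand2 was at 0.13. In each of these 8 domains the peak was also narrower at 6 dpa than in the uncut library, measuring 2685 bp at most at 6 dpa. None of the 8 was wide at 6 dpa, so each is a member only through a wide peak at another time. The choice itself therefore favours lower tags and widths at 6 dpa, and counting intervals do not cover this or the ranking. The narrower 6 dpa peak had the higher score at hand2 (194 against 62.1) and cpeb3 (197 against 77.1). It was also higher at cluha, rbpms2a and, by little, nrarpa, and lower at nedd9, tbx20 and hsp70l.

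The domains with the highest tag change at 6 dpa were led by hic1, which encodes a zinc finger transcriptional repressor. It had 112 tags over 1962 bp in the uncut library, 288 over 5375 bp at 6 dpa and 349 over 4898 bp at 9 dpa (chr15:25745370-25750744). Its log2 change was 1.24 at 6 dpa (0.93 to 1.56) and 1.42 at 9 dpa (1.11 to 1.73), while per kb it was -0.17 and 0.17. The others were si:dkeyp-72h1.1 (1.11), the domain of serpinb1l3 and rmdn1 (1.07), prkar2aa, which encodes a regulatory subunit of protein kinase A (1.03), the tetraspanin gene tspan36 (0.97), the aromatic amino acid transporter gene slc16a10 (0.97), the kinase gene pkdcca (0.92) and the transcript NM_001309465, which has no symbol in the files (0.92). At prkar2aa tags were 235, 521 and 484 and widths 3252, 4799 and 4603 bp, so both stayed near the 6 dpa value at 9 dpa. At pkdcca tags were 73, 150 and 89 and widths 1183, 3552 and 1310 bp, a block seen at 6 dpa alone. Per kb, prkar2aa (0.51) and slc16a10 (0.61) were the 2 of these 8 with a clear excess at 6 dpa, and pkdcca was at -0.62. All 8 were wide at 6 dpa, and prkar2aa alone was also wide in the uncut library. The choice itself therefore favours higher values at 6 dpa, and counting intervals do not cover this or the ranking.

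**Figure D4:**
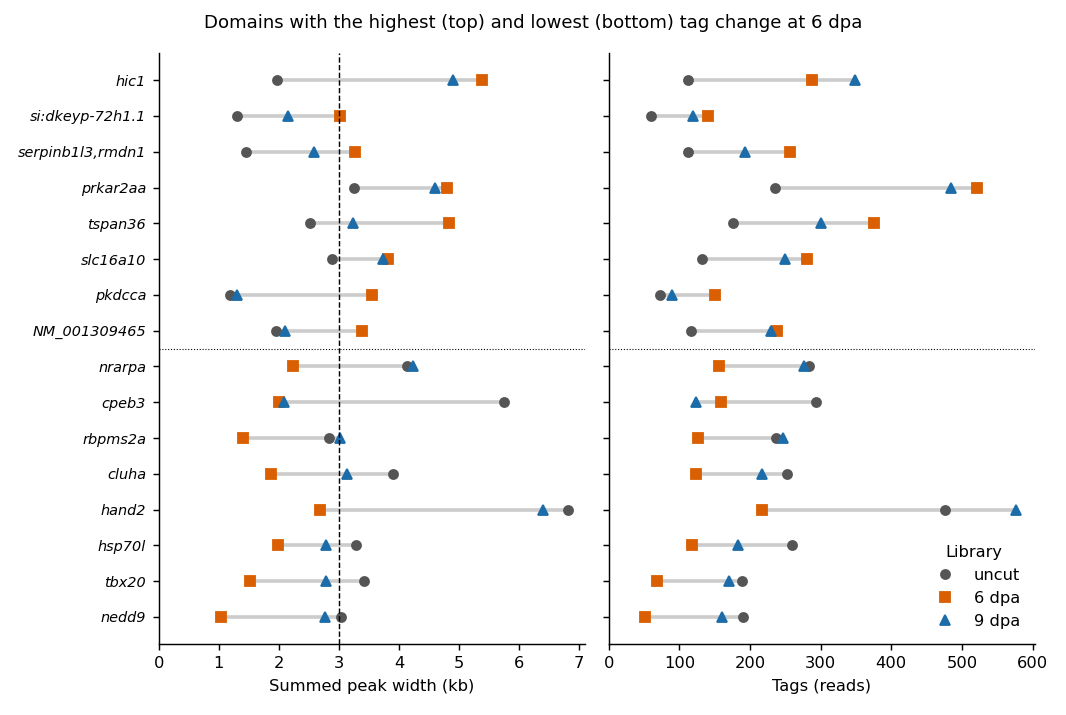
Summed width of the H3K9ac peaks (kb, left, with the 3000 bp minimum dashed) and their tags (reads, right) in the uncut, 6 dpa and 9 dpa libraries for the 8 domains with the highest (top) and the 8 with the lowest (bottom) log2 tag change at 6 dpa against uncut. In the lower block hand2 had 6807 bp in the uncut library, 2685 bp at 6 dpa and 6405 bp at 9 dpa, and cpeb3 stayed near 2 kb at both later times. The hand2 peaks scored 62.1, 194 and 74.4 in the same order.

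At 9 dpa the highest domain was prox1a, which encodes a homeobox factor of lymphatic endothelium and heart muscle, with 63, 61 and 217 tags over 1394, 1612 and 3859 bp. Its log2 change at 9 dpa was 1.56, beyond counting error, but it is a member only through its wide 9 dpa peak. After hic1 came the domain of ncoa4, which encodes a cargo receptor for ferritin, and of yipf3, at 1.37, ccnd1 at 1.35 and klf1 at 1.30. The ncoa4 and yipf3 domain had 282, 300 and 848 tags over 2576, 2424 and 7641 bp, but its 9 dpa peak scored only 58.5. The lowest at 9 dpa were cpeb3 (-1.47), errfi1 (-1.42), which encodes an inhibitor of ERBB receptors, the ArfGAP gene asap2a (-1.05), nr1d1 (-0.96) and nrip2 (-0.90). At errfi1 tags were 195, 114 and 85 over 3488, 1971 and 1579 bp, and at asap2a 210, 128 and 118 over 4081, 1658 and 1602 bp. The domains of errfi1, asap2a and cpeb3 were narrower at both times after amputation. The highest domains named here were all wide at 9 dpa and none in the uncut library, and none of the lowest was wide at 9 dpa. The choice itself therefore favours these changes, and counting error does not cover this.

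A peak missing from a list has no recorded score, and is not a measured absence of the mark. The lowest score listed was 50, and the caller's settings are not given in the sources used here. Of the 528 domains 29 lacked a listed peak at 1 time or more, against 14.0% of all promoter loci. At 6 dpa 17 had a peak and none in the uncut library, where 7.71% of all loci did, and 7 the reverse (2.72%). At 9 dpa against the uncut library the counts were 15 (5.87%) and 5 (2.80%), and at 9 dpa against 6 dpa 7 (3.48%) and 7 (5.40%). Several had many tags where they were listed. The domain of atp1b1a, which encodes a sodium pump subunit, had 543 tags at 6 dpa and 565 at 9 dpa and no listed peak in the uncut library. The phosphoprotein gene anp32b had 501 tags at 6 dpa and 961 at 9 dpa, with scores of 451 and 57.7 and widest peaks of 2953 and 8041 bp. At nt5dc2 (417 tags, 4867 bp) and zgc:113090 (367 tags, 6115 bp) the uncut library alone listed a peak, with scores of 56.3 and 50.9. The score of the 9 dpa peak at meis1b was 50.2. Some of the largest domains by tags thus had scores close to the lowest listed.

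Over the 29 domains the median score of a listed domain was 115, against 259 in those present at all times. The highest score at any time was under 100 in 11 of the 29 and in 7 of the 499 others. Their highest tag counts ranged from 126 to 961 with a median of 235, against a median of 315 in the others. The local density at these domains was 2.81 times the library background at the median, and 3.02 times at the others. The part of the local density in which domains were listed was not tested. Further genes with listed peaks at some times only were tgif1 (297 and 282 tags at 6 and 9 dpa), igfbp1a (254 and 266), mibp (501 at 6 dpa), loxl5a (338 at 6 dpa), qkia (215 in the uncut library and 390 at 9 dpa), zeb2a (293 and 535 at the same times), gbp (366 and 378 in the uncut and 6 dpa libraries) and sall1a (215 in the uncut library). Other domains of this kind were hn1l (235 and 226 tags at 6 and 9 dpa), si:ch73-103b9.2 (155 and 177), the domain of srgap2a and zgc:101564 (207 at 9 dpa), and adrb3a (150) and rnf19b (141) at 6 dpa alone. The domain of zgc:153409 and the linker histone gene histh1l was wide at 6 dpa alone because 2 peaks in the uncut and 9 dpa libraries stood where 6 dpa had 1, and its summed widths were 5292, 6053 and 5332 bp with 370, 484 and 488 tags.

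**Figure D5:**
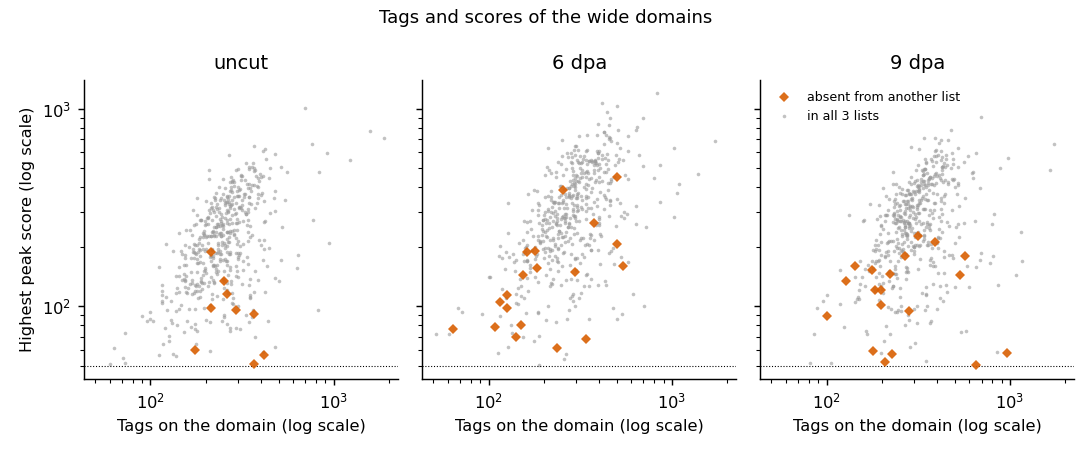
Highest peak score (log scale, the lowest listed score of 50 dotted) against tags on the domain (log scale) in each library, for domains absent from another library's list (diamonds) and those in all 3 lists (dots). Domains absent from a list had a median score of 115 against 259, and a median highest tag count of 235 against 315. Scores at equal tags were not compared.

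H3K9me3, which the choice did not use, overlapped few wide peaks. The share was 3.10% in the uncut library (Wilson 95% interval 1.58 to 6.00), 6.31% at 6 dpa (4.16 to 9.45) and 2.60% at 9 dpa (1.42 to 4.71). For narrower promoter peaks it was 0.788%, 3.60% and 0.761% in the same order. Wide peaks have more room for an overlap, and per Mb covered the numbers were 8.31, 16.8 and 6.84 in wide peaks against 4.81, 22.0 and 4.50 in narrower ones. The excess in wide peaks was thus smaller per Mb in the uncut and 9 dpa libraries, and at 6 dpa the narrower peaks had more. Of the 528 domains 9 carried an H3K9me3 peak in the uncut library, 35 at 6 dpa and 16 at 9 dpa, 40 at any time and 6 at all times. Among all 8530 promoter loci 78, 317 and 83 did in the uncut, 6 dpa and 9 dpa libraries, so the highest count at 6 dpa is not particular to the domains. Besides the 3 very wide ones the 6 included elp5, which encodes an Elongator subunit, with 375, 824 and 762 H3K9me3 tags, fam126a with 96, 177 and 110, and the domain of zgc:64043 and lycat. Most of the others were seen at 6 dpa alone. Counting H3K9me3 peaks that scored 100 or more, the 6 dpa share was 2.40%. The H3K9me3 libraries differed in depth, with a background of 4.10, 10.83 and 9.24 reads per kb, and its part in the 6 dpa share was not tested.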

How the data were processed

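ChIP-seq peak lists of 6 libraries, 1 for each of H3K9ac and H3K9me3 in uncut hearts and at 6 and 9 dpa, were used. Per the submitters' processing notes, the tools named are MACS 1.4.2, Bowtie2 2.2.5 and DiffBind 1.16.3, on the danRer10 build; their roles and settings, the control and the read totals are not given in the sources used here. Per the file headers, each deposited peak has a tag count (reads, not normalized), a length, a score (10 times the negative log10 of p) and a fold enrichment, a ratio that the authors' caller gave. Folds served only to describe peaks within a list. Scores also served to recover local density and library background and to set score minimums. They were pooled over libraries for domains missing from a list, and were not scaled between libraries. No genome was used, so no sequence is shown.

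Peaks were made unique by position with Python 3.11.15 and pandas 2.3.3. The members, gene lists and comparisons were chosen with earlier results of these data known. Local density was recovered from score and tags with the Poisson distribution (scipy 1.17.1); 86.2% to 87.1% of H3K9ac peaks gave a multiple of 0.1 reads per kb (tolerance 0.002), and the most frequent density was the library background (14.63, 11.25 and 15.01 reads per kb in the uncut, 6 dpa and 9 dpa H3K9ac libraries). The ratio calculation was tested on simulated data. Counting intervals are 95% and cover counting error only. With 1 library per group no test was made and no p was computed. Reads are not known to be independent molecules.

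The named domains are the 10 widest by mean width, the 8 highest and 8 lowest in tag change at 6 dpa and the 5 and 5 at 9 dpa, the 5 most different in width in classes wide at some times only, list members, and the peaks at the minimum; igfbp1a, qkia, gbp and the domains with H3K9me3 were named after their values were seen. Alternatives were other width minimums, TSS windows, joined peaks, equal numbers of peaks, a score minimum, scaling to background and tags per kb. One listed gene is not reported here.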

Additional observations from a re-analysis of the deposited data

How the results depend on the processing

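With a minimum of 2500 bp there were 647, 777 and 846 wide peaks in the uncut, 6 dpa and 9 dpa libraries, 1153 domains and 418 wide at all times. With 4000 bp there were 67, 87, 102, 151 and 31 in that order, the median log2 tag changes were 0.16 at 6 dpa and 0.15 at 9 dpa, and the H3K9me3 share at 6 dpa was 11.5%. Scaled to the library background, the medians were 0.61 at 6 dpa, 0.27 at 9 dpa and -0.35 for 9 against 6 dpa. Per kb they were 0.044 at 6 dpa and 0.032 at 9 dpa. Counting H3K9me3 peaks that scored 100 or more, the 6 dpa share was 2.40%. The other 32 values, from these and the remaining settings (a 1 kb window, peaks joined, equal numbers of peaks, a score minimum, and domains chosen in the other library), moved less: counts stayed within 1.5 times the reported value, shares within its 95% interval, and medians within 0.028, 0.024 and 0.029 of it on the log2 scale for 6 dpa and 9 dpa against uncut and 9 dpa against 6 dpa. Joining peaks moved the uncut count to 332 and the domains wide at all times to 209. The medians over all domains did not turn in sign. Some medians of single gene lists did when scaled to background, as at the feedback inhibitors at 6 dpa (-0.05 to 0.45). A score minimum of 100 for H3K9ac, chosen after seeing the data, gave 494 domains and 138 wide at all times.

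No paired analysis was possible because each mark and time had 1 library. Depth is known only through the recovered background, and a domain missing from a list has no recorded score there. The cause of any difference between libraries was not tested.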

Other observations

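Wide H3K9ac peaks also lay away from annotated start sites. Peaks of at least 3000 bp with no annotated TSS within 2 kb numbered 288 in the uncut library, 337 at 6 dpa and 344 at 9 dpa. They held 9.46%, 9.31% and 8.73% of the tags in H3K9ac peaks, against 4.51%, 5.66% and 6.37% in the wide promoter peaks. The widest one in the uncut library spanned 8922 bp on chromosome 13 with 4592 tags. The widest at 6 and 9 dpa was a peak on chromosome 24, with 8976 bp and 2774 tags at 6 dpa and 8994 bp and 2918 tags at 9 dpa, and the uncut library listed it with 8844 bp and 3087 tags. What lies under these peaks was not analysed here.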
